A study of Mus musculus with 10 samples.

Results

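The genes described here are 35 that encode proteins of the extracellular matrix other than collagens: glycoproteins of elastic fibres, basement membranes and cell adhesion, and proteoglycans. They were chosen by name as matrix proteins, with earlier results of these data known. Each was found on the array through the RefSeq accession of its probes. They make up 35 of the 22907 genes named on the array. A gene was tested if 4 or more arrays of either group of 5 showed its probe well above background, and 33 of the 35 genes passed among 15086 genes tested. Tnc and Mfap5 did not pass. Fbln1 passed through the control arrays alone, with 3 ethanol arrays above background, and the other 32 passed in both groups.

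Livers came from male C57BL/6J mice, wild type, bought at the age of 7 weeks, and all were fed a diet with 60% fat for 4 months. The control group received this diet alone, and so is a group of diet-fed animals rather than lean ones. The ethanol group also had ethanol in its drinking water for the last 3 months, drinking 5 g per kg and day during week 1 and 10 g per kg and day from then on. Each group held 10 mice, of which 5 chosen at random were put on arrays, 1 mouse per array. RNA from whole liver pieces was labelled with Cy3, starting from 150 ng, and hybridised to 1-colour Agilent arrays. Signals are given as log2 of the processed signal relative to the 75th percentile of the same array, so that 0 is the level of that percentile. Probes differ in how well they bind, so signals are compared between mice within a gene and never between genes.

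Between 55.5% and 59.1% of probes were well above background on each array, and no probe spot was saturated on any of them (0 spots). The 75th percentile of the raw signal lay between 277.0 and 383.3. The 10 arrays sat on 3 slides, each with numbered columns. Slide 2 held control mice only, column 4 held control mice 1, 4 and 5 only, and column 1 held ethanol mice 2 and 3 only. Slide 1 held control mice 4 and 5 with ethanol mouse 4, and slide 3 held control mouse 2 with ethanol mice 1, 2, 3 and 5. Values from fits that include the column or the slide, and from single slides that held both groups, are therefore given beside the results. Over all genes, 3 of 15086 passed an adjusted p of 0.05 in limma, and 0 with the column as a number or the slide in the fit.

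In the liver the matrix is made chiefly by hepatic stellate cells and portal fibroblasts, with contributions from endothelial cells and, for plasma fibronectin, from hepatocytes. Fibrillin microfibrils form a scaffold onto which elastin is laid by fibulins, and they hold latent TGF-beta through the latent TGF-beta binding proteins. Laminins, nidogens and perlecan build basement membranes around vessels and ducts, and matricellular proteins such as thrombospondins and periostin signal to cells rather than bear load.

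The region just upstream of the gene start is printed for 4 genes, because in each of them every ethanol mouse lay below every control mouse and the sequence table listed a single start. Each line gives the 250 bases before the start, read on the gene's strand from 5′ to 3′, from RefSeq on the GRCm38.p6 build. Capitals mark matches to any of 5 motifs searched on both strands: the TATA box TATAAA, the GC box GGGCGG, the AP-1 site TGANTCA, the TEAD site GGAATG and the Smad site CAGACA. The windows are chr12:84876492-84876741 (minus strand) for Ltbp2, chr5:77408046-77408295 (minus) for Igfbp7, chr11:28852955-28853204 (plus) for Efemp1 and chr2:125506439-125506688 (minus) for Fbn1.
Ltbp2: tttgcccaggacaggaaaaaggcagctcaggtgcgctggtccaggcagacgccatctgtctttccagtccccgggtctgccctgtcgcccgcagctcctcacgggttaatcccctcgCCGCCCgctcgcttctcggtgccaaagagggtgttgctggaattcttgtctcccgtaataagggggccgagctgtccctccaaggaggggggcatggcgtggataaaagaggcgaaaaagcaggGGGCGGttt
Igfbp7: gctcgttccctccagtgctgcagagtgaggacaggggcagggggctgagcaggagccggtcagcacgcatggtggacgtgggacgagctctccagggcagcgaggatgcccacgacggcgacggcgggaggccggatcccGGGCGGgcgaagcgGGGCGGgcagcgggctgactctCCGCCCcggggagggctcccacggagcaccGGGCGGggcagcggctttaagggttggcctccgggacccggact
Efemp1: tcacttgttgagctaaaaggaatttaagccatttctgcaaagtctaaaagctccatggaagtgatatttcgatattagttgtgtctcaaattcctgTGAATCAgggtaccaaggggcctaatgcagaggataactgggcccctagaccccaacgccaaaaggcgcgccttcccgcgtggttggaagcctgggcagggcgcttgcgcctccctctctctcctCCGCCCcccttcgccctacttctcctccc
Fbn1: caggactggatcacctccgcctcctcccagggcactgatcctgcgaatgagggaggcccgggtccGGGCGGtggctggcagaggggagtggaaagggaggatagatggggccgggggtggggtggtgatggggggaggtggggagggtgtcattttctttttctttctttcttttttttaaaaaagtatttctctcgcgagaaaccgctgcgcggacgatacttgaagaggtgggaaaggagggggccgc

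All 4 windows held a GC box, and the Efemp1 window also held an AP-1 match, TGAATCA. None of the 4 windows held the TATA box, the TEAD site or the Smad site on either strand. Across the genes described here, 26 of 35 had an entry, with 34 starts in all. A GC box was found before 20 of these 34 starts, against 51.2% of the 15085 starts of tested genes and 32.7% of all 32851 starts in the table. CAGACA was found before 11 of 34, against 14.1% of starts of tested genes. TATAAA was found before 6, TGANTCA before 2 and GGAATG before 3, against 8.27%, 5.2% and 11.2%. A match is a stretch of letters and was not tied to any binding measured here.

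With ethanol, most of the 33 measured genes had lower mean signals. The class medians were lowest for the glycoproteins of microfibrils and elastic fibres and for the adhesive and matricellular proteins, at -0.61 each, and all 9 basement membrane genes were lower with a smaller median. The 4 proteoglycans were divided, and fibronectin was not lower. The median log2 difference, ethanol minus control, was -0.50 over the 33 genes and 0.03 over all genes tested. Of the 33, 28 had a difference below 0, against 43.2% of all genes. A difference of -0.5 or lower was found for 17 of 33, against 3.77% of all genes. No single gene of the 33 passed: 0 had an adjusted p under 0.05, where 0.0199% of all genes did in either direction and 0.00663% were lower. At an unadjusted p under 0.05, limma gave 15 of the 33 as lower and 0 as higher, against 5.22% and 8.12% of all genes. For 7 of the 33 all 5 ethanol mice lay below all 5 control mice, against 1.07% of all genes, and 0 lay wholly above, against 1.98%.

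Without the filter on dim probes, so with Tnc and Mfap5 included, 30 of 35 were lower, against 49.1% of 22907 genes, and the median difference was -0.43. With the slide column in the fit as a number, which is what the slide column means from here on, the median over the 33 genes shrank to -0.27, with 27 lower (44.7% of all genes), 9 lower at an unadjusted p under 0.05 (2.31%) and 0 higher (3.44%). With the slide as a block it was -0.49, with 29 lower (47.1%) and 10 at that p (2.51%). Within slide 1 alone the median difference was -0.70 and within slide 3 alone -0.31, with 29 (43% of all genes) and 26 (51.7%) genes lower. Without the 2 ethanol mice of column 1 the median was -0.31, with 27 lower (43.7% of all genes) and 9 at that p (4.12%). With the column as a factor the comparison rests on columns 2 and 3 alone, which held control mice 2 and 3 and ethanol mice 1, 4 and 5. There the median difference was -0.05, with 19 of 33 lower (45.4% of all genes), 4 of them at that p (3.78%), and 0 passed an adjusted p of 0.05 (0.0265%). Of those 4, 2 were proteoglycans, 1 was an elastic fibre or microfibril gene, 1 an adhesive or matricellular gene and 0 a basement membrane gene. All 7 genes without overlap had a difference below 0 in this fit, from -0.82 for Thbs1 to -0.22 for Igfbp7. Their selection fixed that sign, because in them every ethanol mouse lay below every control mouse. What the position on the slide contributes was not tested beyond these values, and control mice 2 and 3 had the lowest medians of the controls.

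The ethanol mice were not alike. Relative to the control mean of each gene, the median over the 33 genes was -0.15, -0.63, -0.56, -0.47 and -0.20 in ethanol mice 1 to 5. In control mice 1 to 5 it was 0.15, -0.09, -0.20, 0.08 and 0.12. Ethanol mice 2, 3 and 4 lay below every control mouse, while ethanol mouse 1 overlapped the control range and ethanol mouse 5 lay level with its lowest mouse. Of the 33 genes, 8, 23, 20, 21 and 12 lay below all 5 control mice in ethanol mice 1 to 5. Over all genes that share was 17.3%, 20.8%, 26.7%, 14.1% and 17.7%. Mice 2 and 3 were the pair in column 1 of slide 3, and mouse 4 was in column 3 of slide 1.

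**Figure D1:**
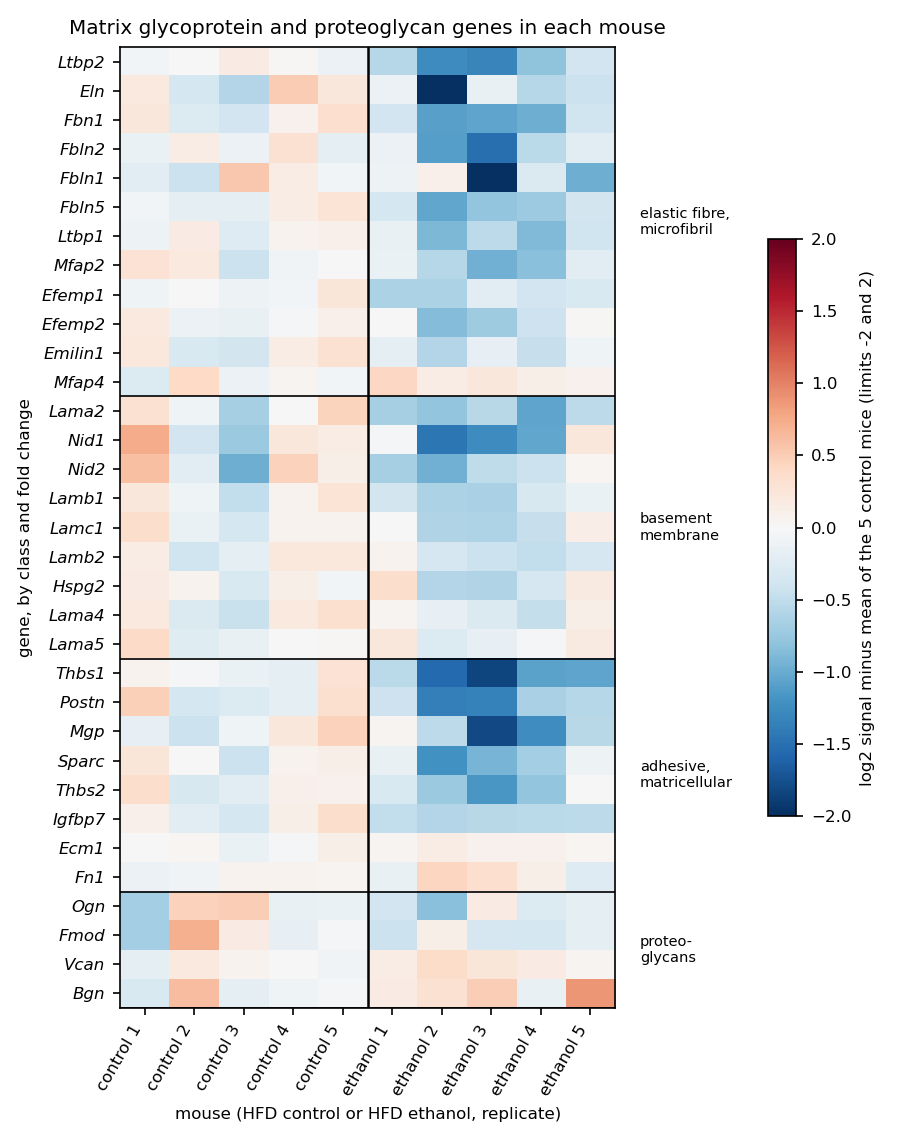
Heat map of the 33 measured matrix genes (rows, grouped by class) in the 5 control and 5 ethanol mice (columns), coloured by log2 signal minus the mean of the control mice (blue lower, red higher, colours capped at -2 and 2). Ethanol mice 2, 3 and 4 show most of the deep blue cells in the elastic fibre and adhesive classes, with 23, 20 and 21 of 33 genes below all control mice, against 8 and 12 in ethanol mice 1 and 5.

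Of the 12 elastic fibre and microfibril genes measured, 11 were lower with ethanol, 7 at an unadjusted p under 0.05, and 4 with no overlap between groups. Over all genes these shares were 43.2%, 5.22% and 1.07%. The median difference of the class was -0.61, which became -0.37 with the slide column in the fit, -0.25 with the column as a factor and -0.69 with the slide as a block. Ltbp2, a relative of the latent TGF-beta binding proteins that associates with microfibrils, had log2 signals of -1.41, -1.37, -1.19, -1.33 and -1.48 in control mice 1 to 5. In the ethanol mice they were -1.92, -2.62, -2.68, -2.16 and -1.73. All 5 ethanol mice were below all control mice, with mice 2 and 3 lowest and mouse 5 nearest to the control range. The group means were -1.36 ± 0.11 and -2.22 ± 0.42 (SD, n = 5 each), 1.82-fold lower with ethanol, and the difference was -0.87 ± 0.18 (SE, limma adjusted p = 0.166). It was -0.66 with the column in the fit, -0.75 within slide 1 and -0.87 within slide 3.

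Fbn1 encodes fibrillin 1, the main protein of microfibrils. Its signals were -1.73, -2.22, -2.33, -1.87 and -1.62 in the control mice and -2.34, -3.04, -3.01, -2.94 and -2.36 in the ethanol mice. The groups did not overlap, but ethanol mice 1 and 5 came within a narrow margin of control mouse 3. Fbn1 was 1.72-fold lower, a log2 difference of -0.78 ± 0.19 (SE, n = 5 each, limma adjusted p = 0.194), and -0.46 with the slide column in the fit. Fbln5, fibulin 5, which tethers elastin to cells and microfibrils, had signals of 0.40, 0.27, 0.27, 0.60 and 0.72 in the control mice. In the ethanol mice they were 0.09, -0.59, -0.34, -0.28 and 0.09. Ethanol mice 2, 3 and 4 lay well below the control range, and mice 1 and 5 nearer to it. The difference was -0.65 ± 0.15 (SE, n = 5 each, limma adjusted p = 0.182), 1.57-fold lower, and -0.40 with the slide column.

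Efemp1 encodes fibulin 3, a short fibulin of elastic tissue. Its signals were 1.33, 1.40, 1.32, 1.36 and 1.65 in the control mice and 0.77, 0.78, 1.19, 1.03 and 1.10 in the ethanol mice. Control mouse 5 stood above the other control mice, and the groups did not overlap. The difference was -0.43 ± 0.11 (SE, n = 5 each, limma adjusted p = 0.192), 1.35-fold lower. In the fits for the layout of the arrays it was -0.44 with the slide column, -0.36 with it as a factor, -0.45 with the slide, and -0.47 and -0.43 inside slides 1 and 3.

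Ltbp1, a binding protein of latent TGF-beta, had signals of -2.06, -1.80, -2.22, -1.89 and -1.86 in the control mice. In the ethanol mice they were -2.12, -2.87, -2.49, -2.85 and -2.37. Ethanol mouse 1 alone lay inside the control range, and the difference was -0.57 ± 0.15 (SE, n = 5 each, limma adjusted p = 0.212). Mfap2, a small glycoprotein of microfibrils, had signals of -2.38, -2.48, -3.10, -2.74 and -2.66 in the control mice and -2.81, -3.24, -3.64, -3.51 and -2.89 in the ethanol mice. Ethanol mice 1 and 5 lay within the control range and the other ethanol mice below it, a difference of -0.55 ± 0.19 (SE, n = 5 each, limma adjusted p = 0.302). A second Mfap2 probe differed by 0.27 in the opposite direction, with 2 control and 4 ethanol arrays above background.

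Eln encodes elastin itself. The probe used gave -3.29, -3.85, -4.08, -2.99 and -3.27 in the control mice and -3.61, -6.33, -3.64, -4.07 and -3.93 in the ethanol mice. Ethanol mouse 2 stood far below all others, at a signal that was not well above background and next to the floor of -6.37, and the remaining ethanol mice overlapped the controls. The difference was -0.82 ± 0.49 (SE, n = 5 each, limma adjusted p = 0.466), -0.12 with the slide column and -0.37 without the ethanol mice of column 1. The other Eln probe differed by 0.20 in the opposite direction, so the 2 probes give no common direction for elastin.

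The remaining measured genes of the class were Fbln2 at -0.69, Fbln1 at -0.69, Efemp2 at -0.39 and Emilin1 at -0.30. They stood at -0.34, -0.30, -0.09 and -0.09 with the slide column. Fbln2 was the only one of these with an unadjusted p under 0.05, and Fbln1 rested on a control group above background against 3 ethanol arrays. Mfap4, a glycoprotein that binds elastic fibres, was the single gene of the class with a higher mean, at 0.20. That sign turned to -0.05 with the slide as a block.

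**Figure D2:**
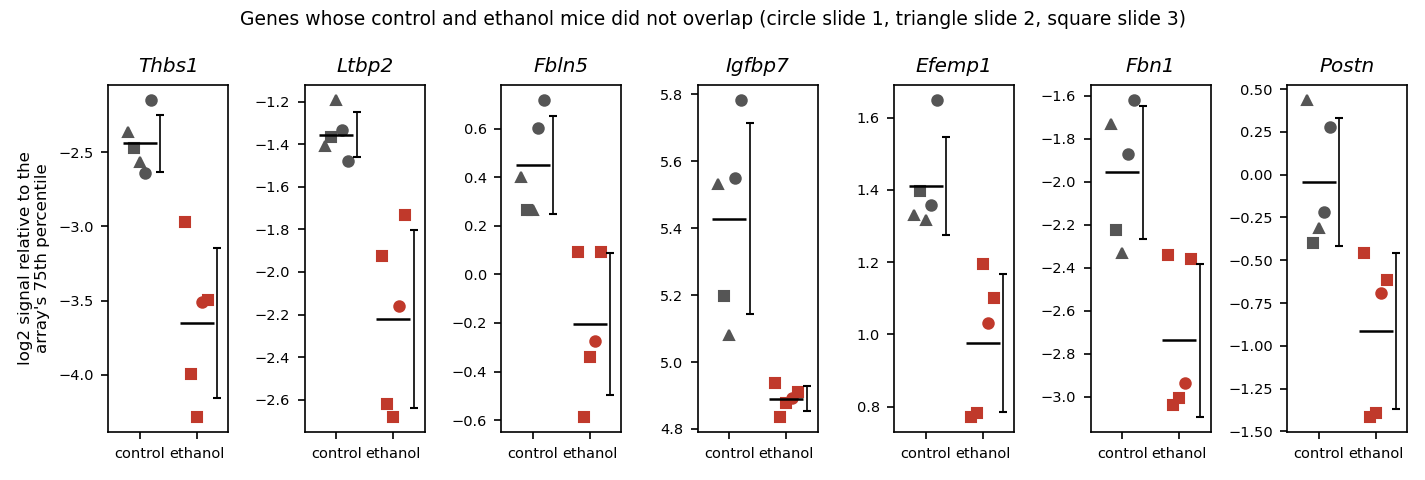
Log2 signal relative to the 75th percentile of the array (y axis, own scale in each panel) of single matrix genes in each control and ethanol mouse, with lines at the group means, bars of 1 SD beside them (n = 5 each) and marker shape for the slide. These are the 7 genes whose groups do not overlap. The ethanol mice of Igfbp7 lie close together under a wider control group, and those of Thbs1 and Ltbp2 spread more than their controls.

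Of the 8 adhesive and matricellular genes measured, 6 were lower with ethanol, all 6 at an unadjusted p under 0.05 and 3 with no overlap between the groups, and Fn1 and Ecm1 were not lower. Over all genes 43.2% were lower, 5.22% at that p and 1.07% with no overlap. The median difference of the class was -0.61, -0.32 with the slide column in the fit and -0.17 with the column as a factor. Thbs1, thrombospondin 1, an activator of latent TGF-beta and an inhibitor of vessel growth, had the lowest difference of the 33 genes. Its signals were -2.36, -2.47, -2.57, -2.64 and -2.15 in the control mice and -2.97, -3.99, -4.28, -3.51 and -3.50 in the ethanol mice. Every ethanol mouse was below every control mouse, with mice 2 and 3 lowest and mouse 1 nearest to the controls. The means were -2.44 ± 0.19 and -3.65 ± 0.50 (SD, n = 5 each), 2.32-fold lower, and the difference was -1.21 ± 0.22 (SE, limma adjusted p = 0.156). A second Thbs1 probe gave -1.07, with 5 control and 3 ethanol arrays above background. With the slide column in the fit the difference was -0.82, within slide 1 it was -1.11 and within slide 3 -1.21.

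Postn encodes periostin, a matricellular protein of wounds and fibrous tissue. Its signals were 0.43, -0.40, -0.31, -0.22 and 0.28 in the control mice and -0.46, -1.41, -1.39, -0.69 and -0.61 in the ethanol mice. The lowest control mouse and the highest ethanol mouse were close to each other, and ethanol mice 2 and 3 were well below every control mouse. Periostin was 1.83-fold lower, at -0.87 ± 0.24 (SE, n = 5 each, limma adjusted p = 0.217), and this shrank to -0.36 with the slide column in the fit. Igfbp7, a secreted protein of vessel walls that binds insulin-like growth factors weakly, had signals of 5.53, 5.20, 5.08, 5.55 and 5.78 in the control mice. In the ethanol mice they were 4.94, 4.84, 4.88, 4.89 and 4.91. The ethanol mice lay close together below all the controls, which spread more widely. The difference was -0.54 ± 0.13 (SE, n = 5 each, limma adjusted p = 0.184), 1.45-fold lower. It was -0.36 with the slide column, -0.52 with the slide as a block and -0.31 within slide 3.

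Thbs2, the second thrombospondin, differed by -0.60, Sparc, a collagen-binding glycoprotein, by -0.61, and Mgp, matrix Gla protein, an inhibitor of calcification, by -0.81. Each overlapped between the groups. With the slide column in the fit they stood at -0.27, -0.27 and -0.41, and with it as a factor at -0.05, -0.03 and -0.35. Fn1 encodes fibronectin, which hepatocytes release into plasma. Its signals were 7.17, 7.22, 7.36, 7.37 and 7.34 in the control mice and 7.15, 7.72, 7.64, 7.41 and 7.04 in the ethanol mice. Ethanol mice 2, 3 and 4 were the highest of all 10 and mice 1 and 5 the lowest. The difference was 0.10 ± 0.13 (SE, n = 5 each, limma adjusted p = 0.764), all 3 Fn1 probes gave the same sign, and it turned to -0.03 under normexp background correction and -0.04 with the slide column. Ecm1, extracellular matrix protein 1, which hepatocytes also secrete, differed by 0.08, and by -0.02 under quantile normalization and -0.03 under normexp.

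All 9 basement membrane genes had differences below 0, against 43.2% of all genes. But 2 of them, Lama2 and Lamb1, had an unadjusted p under 0.05 (5.22% of all genes, lower) and 0 showed groups without overlap (1.07%). The median difference of the 9 was -0.31, and with the slide column in the fit it was -0.05, with 6 of 9 lower. With the column as a factor it was 0.22, with 1 of 9 lower. Lama2, the laminin chain of muscle and mesenchymal basement membranes, had signals of -1.40, -1.80, -2.37, -1.70 and -1.26 in the control mice. In the ethanol mice they were -2.36, -2.50, -2.27, -2.76 and -2.22. Control mouse 3 lay among the ethanol mice, and the other controls lay above all of them. The difference was -0.72 ± 0.20 (SE, n = 5 each, limma adjusted p = 0.219), 1.64-fold lower, -0.62 with the slide column and -0.29 with it as a factor.

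Nid1, nidogen 1, which links laminin to collagen IV, varied widely. Its signals were 2.44, 1.32, 0.97, 1.93 and 1.86 in the control mice and 1.67, 0.26, 0.44, 0.67 and 1.92 in the ethanol mice. Ethanol mice 1 and 5 sat inside the control range and the other ethanol mice below it, a difference of -0.71 ± 0.38 (SE, n = 5 each, limma adjusted p = 0.424). With the slide column in the fit it was -0.10, and with it as a factor 0.38. Hspg2 encodes perlecan, the large heparan sulphate proteoglycan of basement membranes. Its signals were 1.39, 1.30, 0.91, 1.33 and 1.17 in the control mice and 1.57, 0.63, 0.62, 0.88 and 1.39 in the ethanol mice. Ethanol mouse 1 was the highest of all 10 and mice 2 and 3 the lowest, so the groups overlapped, with a difference of -0.20 ± 0.20 (SE, n = 5 each, limma adjusted p = 0.66), or 0.06 with the slide column.

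Among the remaining laminin chains, Lamb1 differed by -0.42, Lamb2 by -0.31, Lamc1 by -0.31, Lama4 by -0.15 and Lama5 by -0.01, and Nid2 by -0.50. In the fit with the slide column these became -0.18, -0.05, -0.04, 0.05, 0.23 and -0.16. Lamb1 and Lamc1 are the chains shared by most laminins. A second Lamc1 probe, above background on all arrays, differed by -0.65. The Lama5 difference was within the SE of 0.14, and its sign also changed, to 0.02, under normexp.

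The 4 proteoglycans had a median difference of -0.02 (-0.36 with the column as a factor), with 2 lower and 2 higher and 0 at an unadjusted p under 0.05. With the column as a factor 3 were lower, 2 of them at that p. Bgn, biglycan, a small leucine-rich proteoglycan, had signals of 0.42, 1.35, 0.53, 0.65 and 0.70 in the control mice. In the ethanol mice they were 0.90, 1.04, 1.22, 0.59 and 1.62. The groups overlapped throughout, with control mouse 2 second only to ethanol mouse 5. The difference was 0.34 ± 0.21 (SE, n = 5 each, limma adjusted p = 0.49), and it was -0.01 with the slide column, -0.09 within slide 1 and -0.16 within slide 3. Vcan, versican, differed by 0.20 (0.05 with the slide column), Ogn, osteoglycin, by -0.30 and Fmod, fibromodulin, by -0.24. Osteoglycin and fibromodulin are small leucine-rich proteoglycans that bind collagen, and with the slide column in the fit they stood at -0.58 and -0.66. Fibromodulin was lower at an unadjusted p under 0.05 in that fit.

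**Figure D3:**
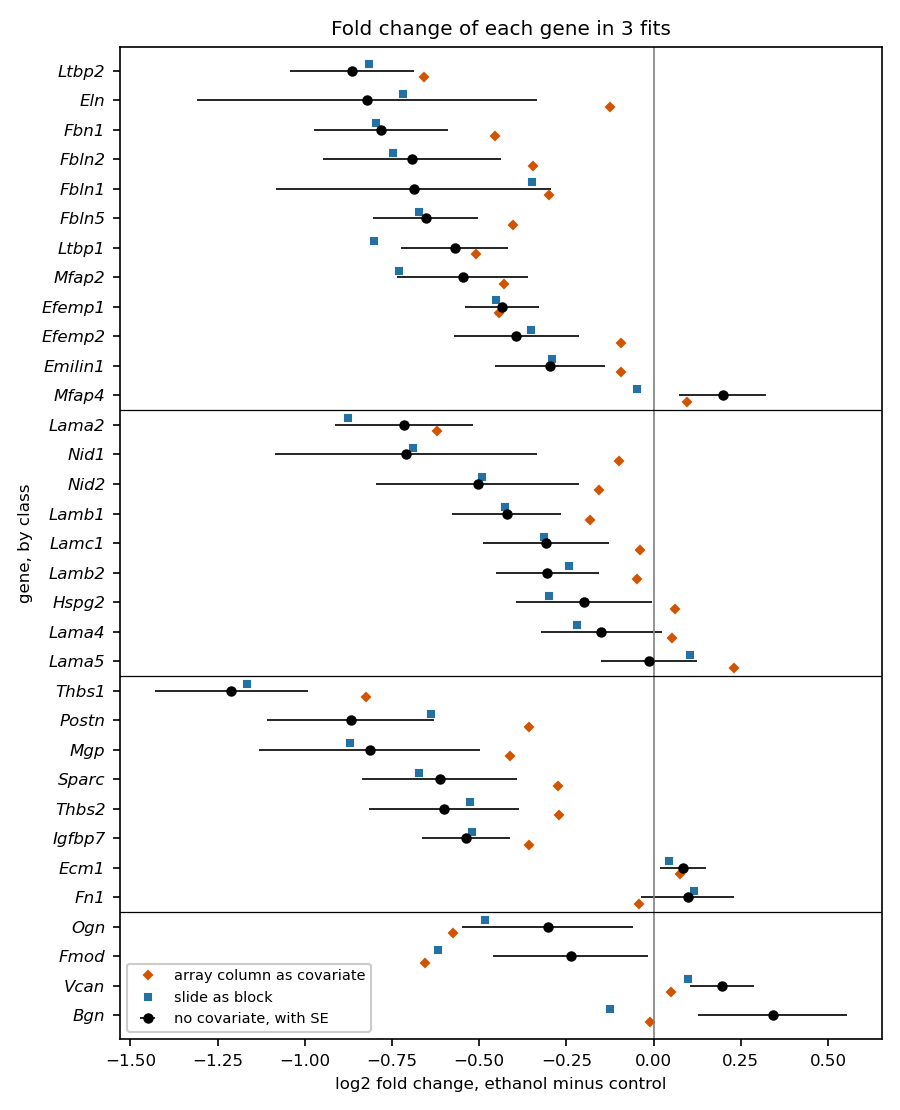
Log2 difference, ethanol minus control, of each of the 33 matrix genes by class, from the fit without covariates (black, bars of 1 SE), with the slide column as a covariate (orange) and with the slide as a block (blue). Thbs1 is lowest at -1.21 and Bgn highest at 0.34, and the median of -0.50 becomes -0.27 with the column and -0.49 with the slide.

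Other matrix genes were set beside these. Over all genes 43.2% were lower, with 5.22% lower and 8.12% higher at an unadjusted p under 0.05 in limma. Groups without overlap were found for 1.07% lower and 1.98% higher. Among 16 of 18 collagen chains that were measured, 15 were lower, 11 at an unadjusted p under 0.05 and 6 without overlap, with a median difference of -0.67 (-0.40 with the slide column, -0.21 with it as a factor). Col1a2, a chain of collagen I, differed by -1.43 ± 0.32 (SE), or -0.94 with the slide column, and Col14a1, a fibril-associated collagen, by -0.64 ± 0.15. Among 56 of 83 further glycoproteins and proteoglycans, 42 were lower, with 18 lower and 3 higher at that p and a median of -0.26 (-0.15 with the slide column, -0.05 with it as a factor). Frem1, among those 18, and Ecm2, among those 42, passed the filter through the control arrays alone, each with 3 ethanol arrays above background. So did Lama3, which was higher with ethanol. Aebp1, a collagen-binding protein, differed by -0.93 ± 0.17, and Smoc1, a calcium-binding basement membrane protein, by 0.45 ± 0.09, with no overlap for either. None of the lists named here and below held a gene with an adjusted p under 0.05 (0 genes).

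Genes that act on these proteins had medians between -0.30 and -0.12, which shrank to between -0.08 and -0.02 with the slide column and to between -0.03 and 0.02 with it as a factor. The shares over all genes were 43.2% lower, and 5.22% lower and 8.12% higher at an unadjusted p under 0.05 in limma. Of 25 matrix receptors 15 were lower, 7 lower and 1 higher at an unadjusted p under 0.05, with a median of -0.13. The integrin chains Itga8 and Itga11 differed by -0.52 ± 0.13 and -0.73 ± 0.22. Of 18 TGF-beta ligands, receptors and activators 12 were lower, 3 of them at that p, with a median of -0.12. Tgfb2, a ligand of the pathway, differed by -0.89 ± 0.32, or -0.46 with the slide column. Of 11 crosslinking enzymes 8 were lower, 5 at that p, with a median of -0.14. Among those 5, Lox and Plod2 passed the filter through the control arrays alone, with 2 and 1 ethanol arrays above background. Lox and Loxl1, which crosslink elastin and collagen, differed by -1.54 ± 0.30 and -1.06 ± 0.25. Of 19 matrix proteases and inhibitors 14 were lower, 7 lower and 1 higher at that p, with a median of -0.30. Adamts2, which trims procollagen, differed by -0.84 ± 0.16 and Adam17, a sheddase, by -0.30 ± 0.06.

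Markers of the cells that make matrix were also mostly lower at the mean. For all genes the shares were 43.2% lower, and 5.22% lower and 8.12% higher at an unadjusted p under 0.05 in limma. Of 10 hepatic stellate cell markers 9 were lower, 3 at an unadjusted p under 0.05, with a median of -0.25 that became -0.03 with the slide column and 0.20 with it as a factor. Their summed signal, in units of the array's 75th percentile, ran from 24.7 to 41.0 in control and from 20.4 to 32.7 in ethanol mice. Reln and Pdgfrb of this list differed by -0.33 ± 0.09 and -0.59 ± 0.24. Of 6 portal fibroblast markers measured among 8, 5 were lower and 1 higher, 3 lower and 1 higher at that p, with a median of -0.31 that became -0.20 with the slide column and -0.16 with it as a factor. Thy1 differed by -0.37 ± 0.12 and Pi16 by -0.62 ± 0.22, and by -0.15 and -0.31 with the slide column. The single higher marker, Clec3b, differed by 0.54 and was chosen for mention after its value was seen. The summed signals of the list were 3.69 to 5.39 and 2.68 to 6.39. In RNA from whole tissue, fewer cells of a type and less RNA per cell cannot be told apart. The part of these cells in the matrix result was not tested.

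Markers of the remaining liver cell types were summarised in the same way. Medians were -0.06 over 10 sinusoidal endothelial markers (summed signal 31.8 to 40.8 in control and 33.2 to 37.5 in ethanol mice), -0.06 over 6 vein endothelial markers and 0.04 over 8 hepatocyte markers (3471 to 4715 and 3879 to 4177). They were -0.12 over 5 of 6 smooth muscle markers (11.3 to 14.7 and 10.1 to 13.1), -0.24 over 10 macrophage markers (39.2 to 64.8 and 33.9 to 66.4) and -0.13 over 3 of 5 red blood cell markers. Mesothelial markers had a median of -0.50 over 4 of 7 (0.441 to 1.38 and 0.324 to 0.756), with Upk3b, Upk1b and Lrrn4 not passing the filter. Gpm6a of this list passed through the control arrays alone, with 1 ethanol array above background. The same held for Cnn1 of the smooth muscle markers, with 1 ethanol array, and Gpnmb of the macrophage markers, with 3. Bile duct markers had a median of -0.53 over 4 of 6 (8.99 to 27.6 and 3.31 to 16.4), with Krt7 and Epcam not passing. With the slide column in the fit, and with it as a factor, the bile duct median became -0.26 and 0.14, and the mesothelial median -1.01 and -0.79. The macrophage median turned to 0.12 and 0.30, that of sinusoidal endothelium to 0.07 and 0.10 and that of vein endothelium to 0.08 and 0.19. The hepatocyte median turned to -0.21 in both fits, smooth muscle gave -0.11 and -0.15, and red blood cells -0.14 and -0.09. Krt19 stands in both the mesothelial and the bile duct list. Spp1, a bile duct marker here, is also among the further glycoproteins and proteoglycans above. The adipocyte-defining Adipoq, Plin1 and Retn did not pass the filter, and the 3 others had a median of 0.13, which turned to -0.06 and -0.14 in the same 2 fits. All 8 hepatocyte markers were well above background on all 10 arrays, which matches the liver label. Their part in the matrix result was not tested either.

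**Figure D4:**
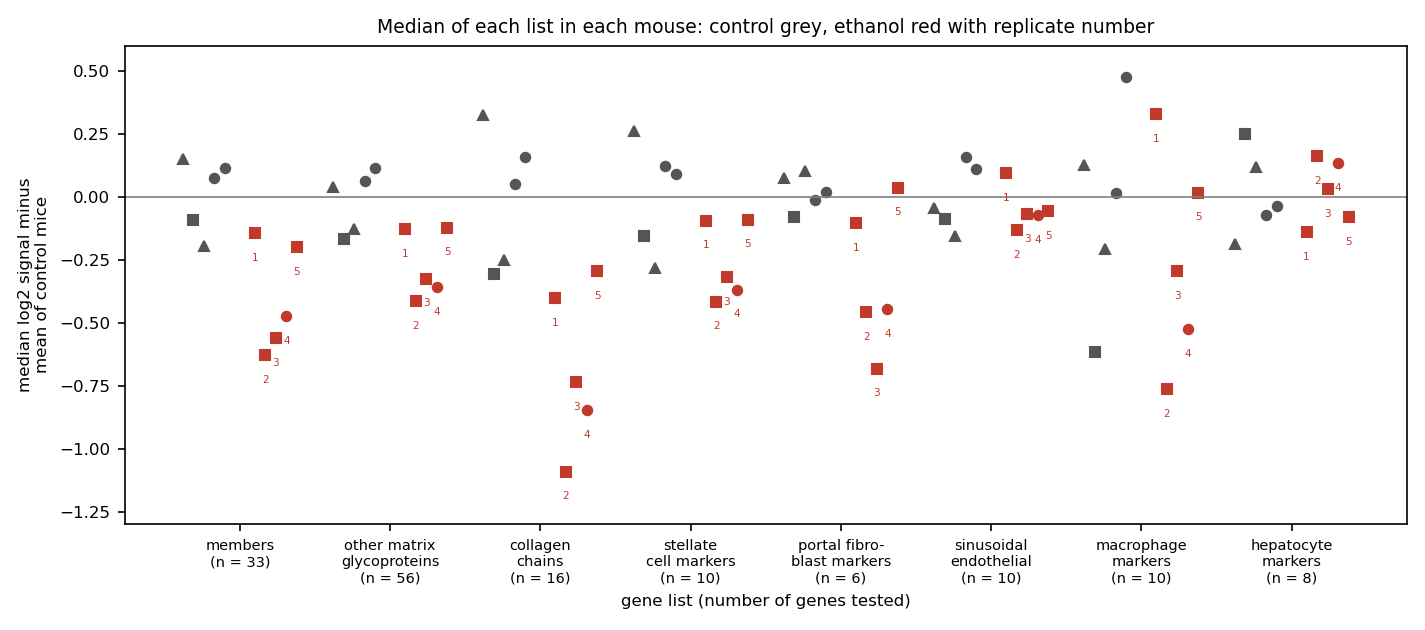
Median over each gene list of log2 signal minus the control mean, 1 point per mouse (control grey, ethanol red with its replicate number, marker shape for the slide). Ethanol mice 2, 3 and 4 are lowest in the 33 matrix genes at -0.63, -0.56 and -0.47. The same mice are the lowest ethanol mice in the other matrix lists and in the stellate, portal fibroblast, sinusoidal endothelial and macrophage lists, but not in the hepatocyte list.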

How the data were processed

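The authors deposited 1 scanner table per array with spot intensities, made per the file headers with Agilent Feature Extraction 10.7.3.1 on a design of the mm9 build. The processed intensity is background-subtracted by that software, per the file headers. They also deposited a table on a log2 scale. The sources used here do not say how that table was made. Its differences between arrays follow those of log2 processed intensity minus the 75th percentile (lowest r of 1 across 27809 probes). A correlation does not show a constant shift between arrays. With the deposited table the median difference over all genes was 0.015 and 46.3% were lower, against 0.029 and 43.2% in the fit reported. Control mice 1 to 5 had column medians of -0.12, 0.08, 0.02, -0.07 and -0.07, and ethanol mice 1 to 5 of 0.02, -0.0036, -0.01, -0.0020 and 0.05. The value each probe was centred on stays unknown and cancels in differences.

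Control and outlier spots were left out, intensities were divided by the 75th percentile of each array, a floor of 4 signal units was set, log2 was taken and spots of a probe were averaged. Of 56605 probes, 31110 passed the filter on dim probes. Names came through RefSeq accessions from the GRCm38.p6 gene table: 32989 probes had 1 symbol and 23616 stayed unnamed and untested. The kept probe with the highest mean signal stood for a gene. For 20 of the 33 genes described this was the single kept probe, and for 2 of the other 13, Eln and Mfap2, kept probes differed in sign.

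The test over all genes was that of limma 3.58.1 (R 4.3.3), with Benjamini-Hochberg adjustment. Each array is 1 mouse and the number of arrays limits the precision. The smallest root mean square difference between 2 arrays was 0.301 on the log2 scale, so all 10 were counted as separate arrays. The scripts were tested on simulated data. The genes and lists were chosen with earlier results of these data known, so lists are described by counts and medians without a test. Values in each mouse are given for genes whose groups do not overlap, the 10 smallest p-values, the gene with the highest signal in each class, and Fn1, Eln and Hspg2. For each pathway list and for stellate and portal fibroblast markers, the 2 genes with the smallest p are named, except 1 gene that is not reported here. Alternatives were another scaling, background correction, floor, filter, probe rule, covariates for slide, column and row, weights, and each array left out. The count at an unadjusted p under 0.05 and the values without the filter were added after seeing the data. All motifs were searched in the 250 bases before each start.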

Additional observations from a re-analysis of the deposited data

Results flagged for a closer look

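Among 66 groups of 5 values tested (33 genes in each group), 3 held a mouse whose gap to its nearest neighbour, as a share of the group's range, was above the critical value of 0.71 for 5 samples. Chance gives about 1 in 20 groups, so this number is not above what chance gives. Eln in ethanol mouse 2 stood at -6.33, with the nearest ethanol mouse at -4.07 and a gap of 0.831 of the range. Efemp1 in control mouse 5 stood at 1.65, with the nearest control mouse at 1.40 and a gap of 0.759. Lamb2 in ethanol mouse 1 stood at -2.31, with the nearest ethanol mouse at -2.70 and a gap of 0.719.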

How the results depend on the processing

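Over 30 alternatives, 0 of the 33 genes passed an adjusted p of 0.05 in limma, with a smallest adjusted p of 0.0615 under the replicate block, against 15 at an unadjusted p under 0.05 in the fit reported. Counts over all genes, 3 as reported, were 8 with normexp, 5 with a floor of 16, 6 without the filter, 12 with the slide as a random block, 15 with array weights and 9 with a trended, robust prior, and 0 with the slide as a fixed block, the column as a number, the row, or within slide 1 or slide 3; leaving out each mouse gave 0 to 7 (7 without ethanol mouse 4, 1 without ethanol mouse 2, 0 without ethanol mouse 1 or control mouse 4 or 5). The number lower at an unadjusted p was 9 with the column as a number, 4 as a factor, 2 within slide 3 and 9 without column 1, and 13 to 18 with each mouse left out. The median of -0.50 became -0.26 with normexp, -0.27 with the column as a number, -0.0488 as a factor, -0.70 within slide 1, -0.31 within slide 3 and -0.31 without column 1, and -0.55 to -0.39 with each mouse left out. Groups did not overlap, with ethanol lower, for 29 of 33 within slide 1 (32.5% of all genes) and 15 within slide 3 (20% of all genes), where few mice make this common, and for 7 to 12 with each mouse left out (12 without control mouse 3, against 2.39% of all genes). The share of all genes that were lower, 43.2%, was 52.7% under quantile normalization and 51.9% under normexp. In the fit with the replicate number as a block, 0 genes passed and the median was -0.50; same-numbered mice deviated together with correlations from -0.11 to 0.324, so the numbers were not taken to pair mice, and 1 control and 2 ethanol mice correlated best with their own number.

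Signs that changed belonged to genes that did not pass. Ecm1 became -0.0195 under quantile normalization and -0.0342 under normexp, where Fn1 became -0.0266 and Lama5 0.0178. With the slide as a block Lama5 became 0.10, Bgn -0.13 and Mfap4 -0.0465. With the column as a number Fn1 became -0.0406, Lama5 0.23, Lama4 0.0528, Hspg2 0.0619 and Bgn -0.011. As a factor, Fn1 became -0.12, Lama5 0.32, Lama4 0.31, Hspg2 0.22, Eln 0.10, Efemp2 0.0267, Emilin1 0.11, Lamb1 0.0566, Lamb2 0.0095, Lamc1 0.19, Nid1 0.38, Nid2 0.35 and Vcan -0.0088. Bgn was -0.0878 within slide 1. Within slide 3, Bgn was -0.16, Mfap4 -0.18, Lama5 0.23, Lama4 0.21, Lamb2 0.14 and Emilin1 0.0485. Without column 1, Fn1 became -0.0932, Lama5 0.12 and Hspg2 0.0618. Eln was 0.20 where all 10 arrays had to be above background, which leaves its other probe. Leaving out 1 mouse moved Lama5 between -0.0757 and 0.0797. Beyond the 33 genes, Lox passed with a floor of 16 (-1.01, adjusted p = 0.0222) and Adamts2 with array weights (-0.93, adjusted p = 0.0495). The cause of these changes between fits was not tested. Signals near background limit Eln, Fbln1, Lox and Plod2. They also limit genes of the other lists, such as Gpm6a, Cnn1, Gpnmb, Frem1, Ecm2 and Lama3.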
